A study of Mus musculus with 6 samples.

Results

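The sirtuins are 7 NAD-dependent deacylases encoded by Sirt1 to Sirt7. They were compared between mouse samples titled as prostate cancer cells given valproic acid (VPA) and as their controls. The family was taken by gene symbol, and all 7 members were found among the 19938 genes tested. Each sirtuin had a single probe set that named it and no other gene, so no choice between probe sets was needed. Valproic acid, a drug for epilepsy and bipolar disorder, inhibits zinc-dependent histone deacetylases.

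Total RNA from 3 control and 3 VPA samples, named as such by their titles, was hybridised to 6 Affymetrix mouse Gene 1.0 ST arrays. Each sample was described as a biological replicate, and whether that means separate cultures is not stated, so the p-values measure the spread between these samples. The other labels of the same samples describe different cells. The samples titled control carry the strain 129SV and the cell type differentiated stem cells, and the samples titled VPA carry the strain Stra8-EGFP/Rosa26 and undifferentiated stem cells. Every VPA minus control difference below rests on the titles, and a treatment, a strain and a state of differentiation that divide the samples in the same way cannot be told apart. Neither dose nor duration of VPA, nor a cell line, is given in the sources used here.

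Sirtuins remove acetyl and other acyl groups from lysines and consume NAD in each reaction, which releases nicotinamide. They differ in this from the zinc-dependent deacetylases that VPA inhibits, and their activity depends on the supply of NAD. Sirt1, Sirt6 and Sirt7 are mainly nuclear, Sirt2 is mainly cytosolic, and Sirt3, Sirt4 and Sirt5 act in mitochondria. In tumours the family is known for ties to p53, to FOXO factors and to energy metabolism.

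The labelled cell types were compared with their markers before the sirtuins were read. Of 11 measured markers of prostate epithelium, 8 lay below the median of all probe sets (log2 7.15 to 7.18) on each of the 6 arrays, and Krt8, Hoxb13 and Foxa1 were the others. Of 10 measured markers of pluripotent stem cells, 9 lay below that median on each array, and Sox2, at 10.98 to 11.71, was the other. The mean of the 10 was 6.45 to 6.64 on the control arrays and 6.30 to 6.44 on the VPA arrays, whose labels name undifferentiated cells. Of the 10 differences, 9 were below 0 (median -0.17) and none passed limma's test. Over all genes 11684 of 19938 differences were below 0 (median -0.035). Deposited values of this kind carry no detection call. Over all genes, the first principal component held 50.1% of the variance, and control replicate 2 (score -3.79) and VPA replicate 3 (score 2.22) lay between the other controls (-21.2 and -18.5) and the other VPA arrays (20.2 and 21.1).

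Sequences before the transcription starts of the family are shown for the members that lay at the ends of the range of differences, Sirt2 and Sirt1, and for matches in Sirt4 and Sirt6. They come from RefSeq (GRCm38.p6), where all 7 sirtuins had an entry and Sirt3 and Sirt6 had more than 1 start, which gave 9 windows of 250 bases. The build behind the array annotation is not stated there, so the positions are those of RefSeq. Capitals mark the letters TTGTAGT in Sirt2 and Sirt4 and CACGTG (an E-box) in Sirt1. They also mark CGCATGCG (the core of the motif of the factor NRF1) in Sirt6. The reverse complement of TTGTAGT is ACTACAA, a part of the longer motif of the factor ZNF143. The Sirt2 stretch is the whole interval of 107 bases between its start and the start of Nfkbib on the other strand.
Sirt2, chr7:28766645-28766751, plus strand: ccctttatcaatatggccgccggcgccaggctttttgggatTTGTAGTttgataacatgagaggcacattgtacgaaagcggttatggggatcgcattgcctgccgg
Sirt1, chr10:63339036-63339285, minus strand: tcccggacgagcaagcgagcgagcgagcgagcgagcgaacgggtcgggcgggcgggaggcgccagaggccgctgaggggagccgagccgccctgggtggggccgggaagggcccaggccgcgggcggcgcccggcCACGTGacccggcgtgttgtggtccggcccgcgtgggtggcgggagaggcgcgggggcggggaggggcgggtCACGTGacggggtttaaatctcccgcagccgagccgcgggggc
Sirt4, chr5:115484411-115484440, minus strand: ggattctgggacTTGTAGTtttcttccaac
Sirt6, chr10:81627691-81627720, minus strand: gcatcaggagggCGCATGCGctctggaaag

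The 9 windows were rich in CpG, with 12 to 39 CpG dinucleotides each against a median of 6 over the 32851 windows of the table. Their GC content ran from 48.8% to 79.2%, against a median of 52.4%, and was highest for Sirt1. Searched on both strands, ACTACAA was found in Sirt2 and Sirt4, and 2.81% of all windows held it; this motif was added after the windows had been read. CACGTG occurred 2 times in Sirt1 and in no other sirtuin window (6.02% of all windows), and CGCATGCG occurred in Sirt6 and Sirt7 (1.55%). The GC box letters GGGCGG were found for Sirt1, Sirt2, Sirt3, Sirt5, Sirt6 and Sirt7 (32.7%), and CCAAT for Sirt2, Sirt3 and Sirt5 (33.8%). CGGAAG, the core of ETS sites, was found for Sirt3, Sirt6 and Sirt7 (13.6%), whereas TATAAA (12.4%) and TGACGTCA, the cAMP response element (1.55%), were in none of the 9. No motif searched was shared by all 7 genes, and such matches are descriptions of the letters.

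No sirtuin passed the test between VPA and control, with limma's moderated test and Benjamini-Hochberg adjustment over all 19938 genes at an adjusted p under 0.05. Over all genes 2.34% passed, 1.71% higher and 0.632% lower with VPA. At an unadjusted p under 0.05 the family held 1 member, Sirt2, which was higher with VPA, where 9.82% of all genes were higher and 8.3% lower at that limit. The VPA and control values did not overlap for Sirt2 and Sirt7, both higher with VPA, and did not overlap in that direction for 11.1% of all genes. The 7 differences ran from -0.13 (Sirt1) to 0.31 (Sirt2) on the log2 scale, with 4 above and 3 below 0. Their median was 0.0067, against -0.035 over all genes, and the median size of a difference was 0.130 for the sirtuins and 0.116 for all genes. The members therefore lay on both sides of the median gene, and they did not share a direction.

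**Figure D1:**
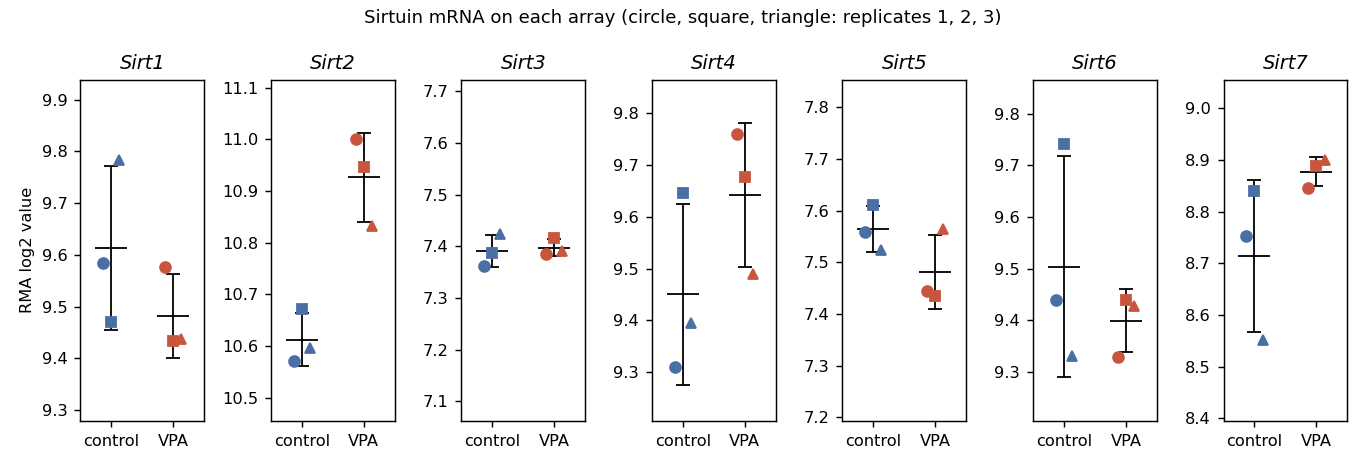
RMA log2 values of the 7 sirtuins on the 3 control (blue) and 3 VPA (red) arrays, 1 panel per gene with the same vertical span; horizontal lines are group means and bars are SD, n = 3. The VPA points lie above all control points for Sirt2 and, by a margin of 0.0070, for Sirt7, and the groups overlap for the other members.

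Sirt2 encodes the mainly cytosolic member, which deacetylates tubulin and enters the nucleus during mitosis. Its log2 values were 10.57, 10.67 and 10.60 in control replicates 1, 2 and 3 and 11 (as deposited), 10.95 and 10.83 in VPA replicates 1, 2 and 3. The lowest VPA value lay 0.161 above the highest control value, and the arrays nearest to the other group were control replicate 2 and VPA replicate 3. The means were 10.61 ± 0.05 and 10.93 ± 0.09 (SD, n = 3), a difference of 0.31 (SE 0.0858). This is 1.24-fold, and its 95% interval reaches from 1.09 to 1.42. The limma p was 0.00482, and the adjusted p of 0.0966 did not pass. The exact two-sided permutation test of the 6 values gave p = 0.1, the smallest that 3 against 3 arrays allow. In all 15 alternative settings the Sirt2 difference stayed between 0.28 and 0.39, and its adjusted p lay between 0.0629 and 0.283.

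Markers of neurons, in which Sirt2 is also expressed, moved with the groups. Of 8 measured neuronal markers 5 rose with VPA at an adjusted p under 0.05 and none fell. Over all genes 1.71% rose and 0.632% fell at that limit. The mean log2 value of the 8 was 7.74 to 7.92 on the control arrays and 8.41 to 8.77 on the VPA arrays. The 5 that rose were Syn1 (1.85, the largest difference of all genes tested), Stmn2 (1.34), Gap43 (1.25), Syt1 (0.78) and Map2 (0.70). Tubb3, at 0.45, did not pass (limma adjusted p = 0.0550). Snap25 and Rbfox3 lay below the array median throughout and differed by 0.01 and -0.14. Of 7 fibroblast markers 1 passed, Thy1, which is also found on neurons (0.99, limma adjusted p = 0.00973), and the mean of the 7 was 8.86 to 8.97 on the control and 8.98 to 9.18 on the VPA arrays. Of 6 measured leukocyte markers Coro1a rose (0.81, adjusted p = 0.0187) and Cd53 fell (-0.88, adjusted p = 0.0373), with means of 7.35 to 7.56 and 7.27 to 7.43. The part of these shifts in the Sirt2 difference was not tested, and in such bulk samples more cells of a type and more RNA per cell cannot be told apart.

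Sirt7 encodes a nucleolar member that acts on transcription of ribosomal RNA genes. Its values were 8.75, 8.84 and 8.55 on the control arrays and 8.85, 8.89 and 8.90 on the VPA arrays. The groups were separated by 0.0070 only, between control replicate 2 and VPA replicate 1, and the controls were more spread than the VPA arrays (SD 0.148 against 0.0279). The difference was 0.16 (SE 0.0955), which is 1.12-fold (interval 0.965 to 1.30), and it did not pass (limma adjusted p = 0.400). Without control replicate 3, the lowest array, the difference was 0.08.

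Sirt1, the best studied member, deacetylates p53, FOXO factors and histones in the nucleus. Its values were 9.58, 9.47 and 9.78 on the control arrays and 9.58, 9.43 and 9.44 on the VPA arrays. VPA replicate 1 lay above control replicate 2, so the groups overlapped. The difference of -0.13 (SE 0.102, limma adjusted p = 0.529) corresponds to a ratio of 0.914 with an interval from 0.780 to 1.07. It was -0.04 without control replicate 3, the highest array.

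Sirt6 encodes a chromatin-bound deacetylase with roles in DNA repair and in restraint of glycolysis. Its control values were 9.44, 9.74 and 9.33 and its VPA values 9.33, 9.44 and 9.43. Control replicate 2 stood above the other 5 arrays, which lay within 9.33 to 9.44. The difference was -0.10 (SE 0.113, limma adjusted p = 0.652, ratio 0.930 with an interval from 0.780 to 1.11). Without control replicate 2 it changed sign, to 0.01.

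Among the mitochondrial members, Sirt3 is the main deacetylase of the matrix. Its values were 7.36, 7.39 and 7.42 on the control arrays and 7.39, 7.42 and 7.39 on the VPA arrays. All 6 lay within 0.0616, the narrowest range of the 7 genes. The difference was 0.0067 (SE 0.0782, limma adjusted p = 0.972), and the interval of the ratio was 0.890 to 1.13. That interval describes the array signal and sets no limit on the change in mRNA. The values lay not far above the median of all probe sets (7.15 to 7.18), without a detection call.

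Sirt4 encodes a mitochondrial member that inhibits glutamate dehydrogenase and acts as a lipoamidase. Its values were 9.31, 9.65 and 9.39 on the control arrays and 9.76, 9.68 and 9.49 on the VPA arrays. Control replicate 2 lay above VPA replicate 3, so the groups overlapped through those arrays. The difference was 0.19 (SE 0.114), which is 1.14-fold (interval 0.957 to 1.36), and did not pass (limma adjusted p = 0.407). Without control replicate 2 it was 0.29 and without VPA replicate 3 it was 0.27. Without both it was 0.37, and the adjusted p of 0.0805 did not pass either.

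Sirt5, which removes succinyl, malonyl and glutaryl groups from mitochondrial proteins, had values of 7.56, 7.61 and 7.52 on the control arrays and 7.44, 7.44 and 7.56 on the VPA arrays. VPA replicates 1 and 2 lay below every control, and VPA replicate 3 lay among the controls. The difference was -0.08 (SE 0.0833, limma adjusted p = 0.626), a ratio of 0.944 with an interval from 0.829 to 1.07. Like those of Sirt3, these values lay not far above the median of all probe sets.

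**Figure D2:**
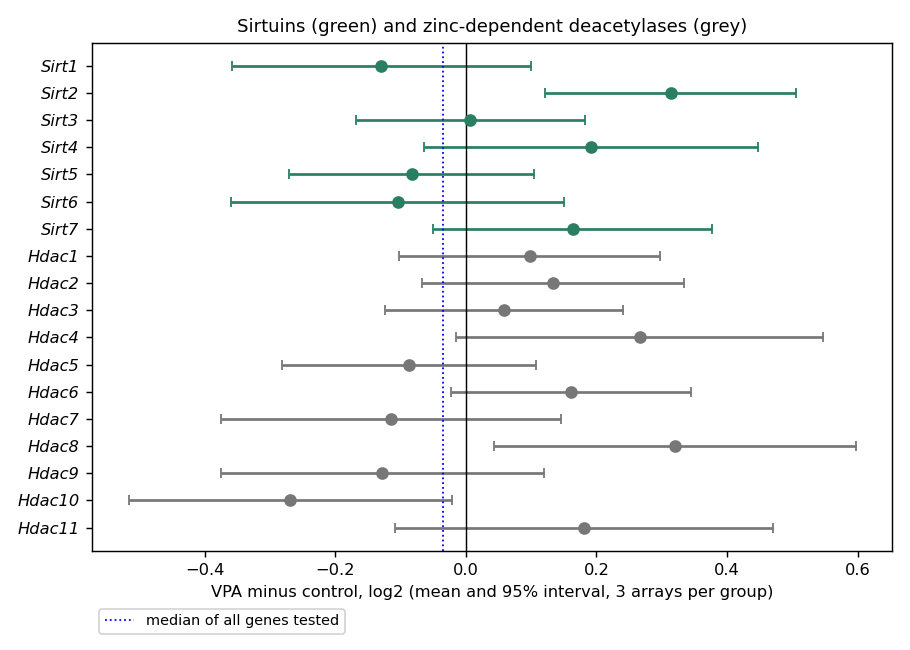
VPA minus control difference (log2) with its 95% interval from limma for the 7 sirtuins (green) and the 11 zinc-dependent histone deacetylases (grey), 3 arrays per group; the dotted line is the median of all genes tested, -0.035. The unadjusted intervals of Sirt2, Hdac8 and Hdac10 leave out 0, and none of the 18 genes passes after adjustment. Over all genes 18.1% have an unadjusted p under 0.05.

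Ratios between members within an array cancel any factor common to all genes of that array. Of the 21 pairs of sirtuins, 7 had ratios that did not overlap between VPA and control, 4 of them with Sirt2 and 3 with Sirt7. The log2 ratio of Sirt2 to Sirt1 differed most, which follows from their differences being the highest and the lowest of the family. Its mean was 1.00 on the control arrays and 1.44 on the VPA arrays. The log2 ratios of Sirt2 to Sirt6, Sirt5 and Sirt3 were higher with VPA by 0.42, 0.40 and 0.31. Each of the 7 pairs had an exact permutation p of 0.1, the smallest possible here, so no pair could pass. For Sirt2 the groups did not overlap in 4 of 6 pairs (66.7%), against 65.9% when Sirt2 was set against every other gene tested. The separation of Sirt2 from its relatives was thus near that from genes in general. No such share was computed for Sirt7 or for the 21 pairs together, so those counts are descriptions only.

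The divergent neighbours of the family were read from the start sites in RefSeq, a step chosen after the sirtuin values were seen. Within 1000 bases and on the other strand, Nfkbib starts 108 bases from Sirt2, Psmd13 starts 85 bases from Sirt3, and Ankrd24 starts 974 bases from Sirt6. Nfkbib, which encodes the NF-kappaB inhibitor IkB-beta, had values of 10.45, 10.57 and 10.25 on the control arrays and 10.86, 10.84 and 10.47 on the VPA arrays. VPA replicate 3 lay below control replicate 2 for Nfkbib, so its groups overlapped, unlike those of Sirt2. Its difference of 0.30 (SE 0.129, limma adjusted p = 0.258) was of the size of that of Sirt2, 0.31, and did not pass. Psmd13, a subunit of the proteasome lid, differed by -0.13 and Ankrd24 by -0.09 (limma adjusted p 0.492 and 0.620), beside 0.0067 for Sirt3 and -0.10 for Sirt6.

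The genes most like Sirt2 and Sirt7, the members with the smallest p, were found by the root mean square distance over the 6 arrays after each gene's mean was subtracted. For Sirt2 they were Akap11, an anchor of protein kinase A, the lipoxygenase-family gene Aloxe3 and Maco1, at distances of 0.0207, 0.0213 and 0.0261. Their differences were 0.31, 0.30 and 0.31, and none passed limma's test (adjusted p 0.103, 0.121 and 0.107). For Sirt7 they were the AlkB homologue gene Alkbh6, Rint1 and Fam120b, at 0.0195, 0.0299 and 0.0314, with differences of 0.17, 0.17 and 0.22. The likeness of these differences to those of Sirt2 and Sirt7 follows from the choice and is no separate result. Within a distance of 0.1 lay 1115 genes for Sirt2 and 1324 for Sirt7, so the named genes are examples of many.

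**Figure D3:**
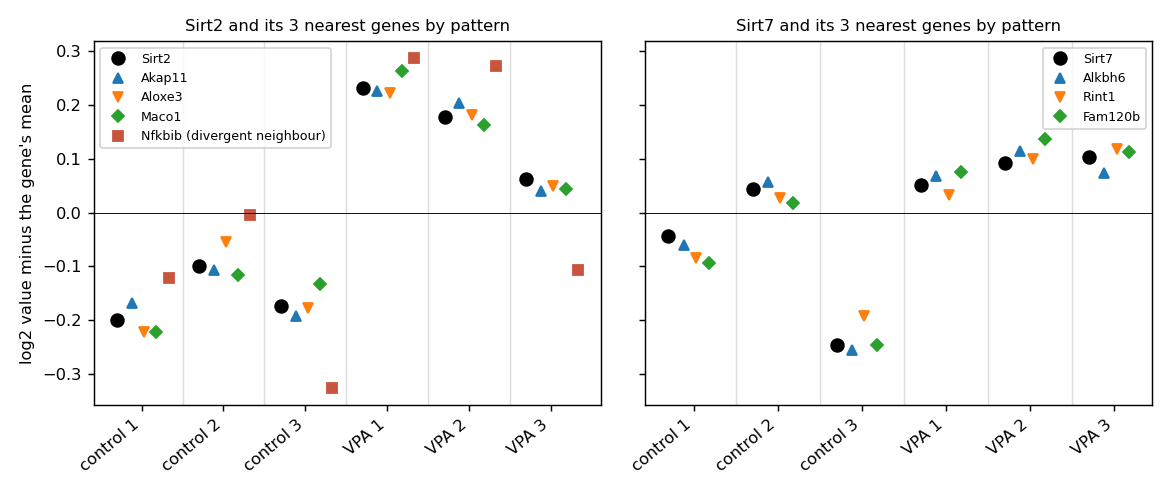
Log2 value minus the gene's own mean on each of the 6 arrays for Sirt2 (left) and Sirt7 (right), with the 3 genes of smallest root mean square distance and, for Sirt2, the divergent neighbour Nfkbib (red squares). The points of Sirt2 and its nearest genes, which were chosen for this likeness, lie below 0 on the controls and above 0 on the VPA arrays. Nfkbib is below 0 on VPA replicate 3.

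Genes that make NAD, the co-substrate of the sirtuins, were read as a list of 18, all measured. With VPA 1 of them fell, 17 did not pass and none rose, where 0.632% of all genes fell and 1.71% rose. The median difference was -0.07. At an unadjusted p under 0.05, 4 of the 18 were lower and 2 higher, where 8.3% of all genes were lower and 9.82% higher. The member that fell was Afmid, which encodes the formamidase of the kynurenine route from tryptophan to NAD. Its values were 8.46, 8.68 and 8.41 on the control arrays and 8.04, 8.14 and 8.0 on the VPA arrays, so that every VPA value was below every control. It fell by 0.46 on the log2 scale (SE 0.0980, limma adjusted p = 0.0477) and passed in 7 of 15 alternative settings. The call ended without control replicate 1, 2 or 3 (adjusted p 0.136, 0.0776 and 0.0872) and without VPA replicate 1, 2 or 3 (0.160, 0.112 and 0.0758). Nampt, the rate-limiting enzyme of NAD salvage from nicotinamide, was at -0.11 (adjusted p = 0.667). Nmrk1, a nicotinamide riboside kinase, had the largest difference of the list, 0.73, with an adjusted p of 0.121. Without VPA replicate 3 it was the only member that passed (0.92, adjusted p = 0.0443), in the direction opposite to Afmid. Of the others at an unadjusted limma p under 0.05, Nmnat1 (-0.58), Naprt (-0.32) and Qprt (-0.31) were lower and Nmnat2 (0.33) was higher. Apart from Afmid, the genes of this list were named after their values were seen.

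Of 9 measured genes of other NAD-consuming enzymes and nicotinamide clearance, none passed limma's test, and 2 were lower at an unadjusted p under 0.05, a limit met in that direction by 8.3% of all genes. Aox1, the aldehyde oxidase that oxidises methylated nicotinamide, had control values of 8.15, 8.69 and 7.96 and VPA values of 7.44, 7.71 and 7.41. The groups did not overlap, and the difference was -0.75 (SE 0.172, limma adjusted p = 0.0581). Aox1 passed in 4 of 15 settings, with adjusted p from 0.00594 to 0.237. Parp3, a poly(ADP-ribose) polymerase family gene of DNA break repair, was at -0.30 (adjusted p = 0.0894). Parp4 and Cd38 had no tested value.

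Of 21 regulators and partners of sirtuins none passed limma's test, 4 had an unadjusted p under 0.05 with higher and 2 with lower values (9.82% and 8.3% of all genes), and the median difference was 0.12. Usp22, a ubiquitin hydrolase that stabilises Sirt1 protein, had values of 9.91, 10.13 and 9.74 on the control arrays and 10.37, 10.47 and 10.23 on the VPA arrays. All VPA values lay above all controls, and the difference was 0.43 (SE 0.116, limma adjusted p = 0.0905). Without control replicate 2 it was 0.54 and passed, at an adjusted p of 0.0460, and without VPA replicate 3 as well it was 0.60 (0.0221). Dyrk3, a kinase that phosphorylates Sirt1, was at 0.34 (adjusted p = 0.106). With the replicate number as a block both passed, at adjusted p values of 0.0203 for Usp22 and 0.0458 for Dyrk3.

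Genes for proteins on which sirtuins act were split by compartment. Among 25 measured nuclear and cytosolic substrates 24 did not pass, 1 fell (0.632% of all genes) and none rose, with a median difference of -0.04. The median changed sign without control replicate 2 (0.03), without VPA replicate 1 (0.02) and without both control replicate 2 and VPA replicate 3 (0.06). The member that fell was Nbn, which encodes nibrin of the complex that senses DNA breaks. Its control values of 9.75, 9.51 and 9.84 lay above its VPA values of 9.19, 9.08 and 9.31, and it fell by 0.51 (SE 0.109, limma adjusted p = 0.0484). With the mean of its probe sets the difference of Nbn was -0.32 (adjusted p = 0.120), so its probe sets disagreed in size. The call also ended without control replicate 1 or 3 (0.174 and 0.154) and without VPA replicate 1 or 2 (0.155 and 0.177). Of 23 measured mitochondrial substrates none passed limma's test, 3 had an unadjusted p under 0.05 with higher and 2 with lower values, and the median difference was 0.0077. These counts lie near the shares of all genes, 9.82% and 8.3%.

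The mitochondrial genes with the smallest p were Sod2 and Slc25a5. Sod2, the manganese superoxide dismutase activated by Sirt3, was at 10.81, 10.94 and 10.88 on the control arrays and 11.29, 11.20 and 11.03 on the VPA arrays. Its groups did not overlap, and the difference of 0.30 (SE 0.0947, limma adjusted p = 0.142) did not pass. Slc25a5, an ADP/ATP carrier, was at -0.47 (adjusted p = 0.171), with VPA replicate 3 among the controls, and it passed without VPA replicate 3 (-0.65, adjusted p = 0.0286). Of 21 FOXO target genes none passed, 4 had an unadjusted p under 0.05, each with higher values (9.82% of all genes), and the median difference was 0.06. That median was 0.00072 without control replicate 3, 0.0026 without control replicate 1 and 0.14 without control replicate 2. Sod2 belongs to this list too, and Sesn1, a stress-induced regulator of TORC1, was at 0.25 (adjusted p = 0.141).

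The 11 zinc-dependent histone deacetylases, the enzyme class that includes the targets of VPA, also had no member that passed. Hdac8 was at 0.32 and Hdac10 at -0.27 (limma adjusted p 0.212 and 0.238), each at an unadjusted p under 0.05. With 1 higher and 1 lower of 11, the counts at that limit lie near the shares of all genes, 9.82% and 8.3%. Hdac8 was at 0.19 without control replicate 3 and Hdac10 at -0.17 without control replicate 1, and the unadjusted p stayed under 0.05 in 12 and 9 of 15 settings. The differences of the class ran from -0.27 to 0.32 with a median of 0.10, against -0.13 to 0.31 and 0.0067 for the sirtuins, and the difference between these families was not tested.

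**Figure D4:**
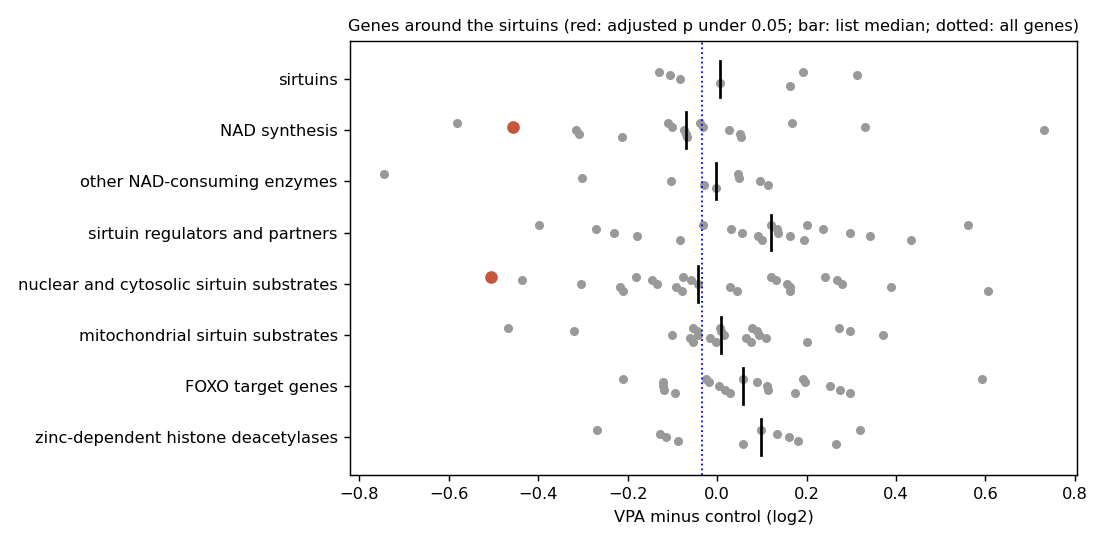
VPA minus control difference (log2) of each measured gene in 8 lists around the sirtuins; grey points did not pass and red points passed at an adjusted p under 0.05, bars are list medians and the dotted line is the median of all genes, -0.035. The 2 red points are Afmid (-0.46) and Nbn (-0.51).

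**Figure D5:**
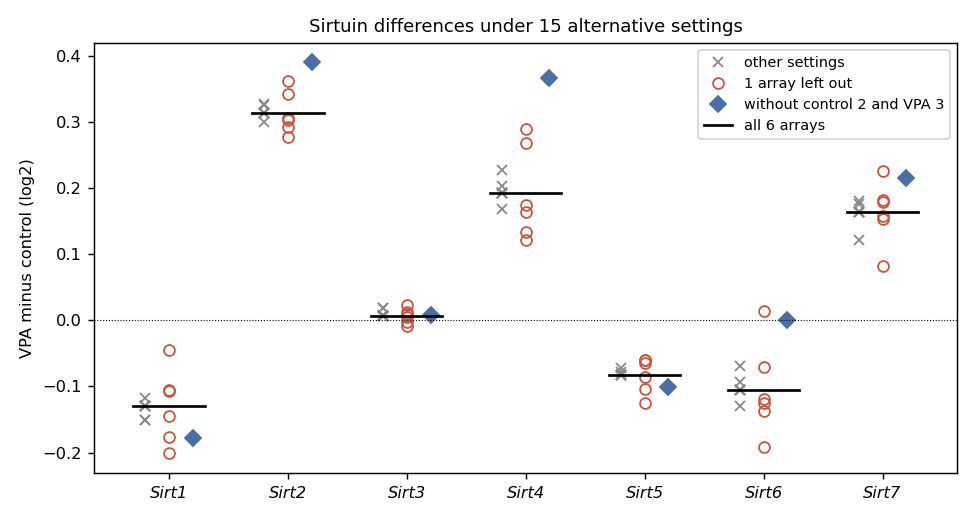
VPA minus control difference (log2) of each sirtuin with all 6 arrays (line), with 1 array left out (circles), without control replicate 2 and VPA replicate 3 (diamonds) and under the other settings (crosses). Sirt2 stays between 0.28 and 0.39, Sirt4 spreads from 0.12 to 0.37, and Sirt3 and Sirt6 have values on both sides of 0.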

How the data were processed

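RNA was isolated with Trizol, treated with DNase I and labelled with biotin (300 ng) for the array, per the labels' protocols. The authors deposited log2 values from RMA, run in Expression Console from Affymetrix, per the submitters' processing notes, and these were used unchanged. Because RMA gives all arrays a common distribution, a shift shared by most transcripts would be hidden. Of 35556 probe sets, 21789 named 1 gene, 1621 named several and 12146 were not listed in the platform annotation. Symbols were updated through Entrez identifiers with RefSeq (GRCm38.p6). The probe set with the highest mean over the 6 arrays was kept for each gene, which gave 19938 genes. Group was the single term of a linear model fitted in limma 3.58.1 (lmFit, eBayes; R 4.3.3), and two-sided p-values were adjusted by Benjamini-Hochberg. The number of arrays limits the precision (median SE 0.101).

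Of 195 entries in the lists, 181 matched a tested gene. The members and lists were chosen with earlier results of these data known. Besides the sirtuins and the cell type markers, up to 3 genes that passed in each direction were named per list. Where none passed, the 2 with the smallest p were named, and the text names exceptions. A sex-chromosome list had mean log2 values of 8.40 to 8.45 on the control and 8.32 to 8.41 on the VPA arrays.

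The alternatives were a filter on low values (3 or more arrays at log2 6 or above), repeated quantile normalization, median centring, a trended and robust prior, a block for the replicate number, weighted arrays, averaged probe sets per gene, all probe sets, and leaving out arrays.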

Additional observations from a re-analysis of the deposited data

How the results depend on the processing

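No sirtuin, no FOXO target gene and no zinc-dependent deacetylase passed limma's test in any of the 15 alternative settings, in which Sirt2 had an unadjusted p under 0.05 each time. The differences of Sirt1, Sirt2, Sirt4, Sirt5 and Sirt7 kept their sign in all 15. Sirt3 changed sign without control replicate 1 (-0.0079) and without VPA replicate 2 (-0.0026). Sirt6 changed sign without control replicate 2 (0.014) and was -0.00028 without that array and VPA replicate 3. With 1 array left out, the differences ran from -0.20 to -0.04 for Sirt1, 0.28 to 0.36 for Sirt2, -0.0079 to 0.023 for Sirt3, 0.12 to 0.29 for Sirt4, -0.12 to -0.06 for Sirt5, -0.19 to 0.014 for Sirt6 and 0.08 to 0.23 for Sirt7.

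Over all genes 467 passed, against 1199 with the replicate block, 714 with array weights, 2 with all probe sets tested, 20 to 815 with 1 array left out (20 without control replicate 1, 815 without VPA replicate 3) and 1349 without control replicate 2 and VPA replicate 3; the cause was not tested. The genes of NAD synthesis that passed were 1, Afmid, which fell, against 0 with all probe sets tested and 0 to 1 with 1 array left out (Nmrk1, which rose, without VPA replicate 3). Without control replicate 2 and VPA replicate 3 they were 2, Nmrk1 and Nmnat2, and both rose. The nuclear and cytosolic substrates that passed were 1, against 2 with the replicate block, 2 with array weights, 0 with probe sets averaged per gene, 0 with all probe sets, 0 to 3 with 1 array left out and 4 without both arrays. Acss2 rose with the block, with weights, without control replicate 2, without VPA replicate 3 and without both, and Foxo1 rose without both. The regulators were 0, against 2 with the replicate block (Usp22 and Dyrk3), 0 to 1 with 1 array left out and 2 without both arrays. The mitochondrial substrates were 0, against 0 to 1 with 1 array left out and 1 without both arrays. The other NAD-consuming genes were 0, against 1 with the filter on low values, with a second quantile normalization, with the trended and robust prior and with the replicate block.

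The replicate numbers of the titles were not treated as pairing the samples, and whether they do is not settled. The deviations of same-numbered arrays from their group means correlated across genes at 0.084, 0.451 and 0.284 for replicates 1, 2 and 3, and replicates 2 and 3 correlated best with their own number, whereas control replicate 1 correlated best with VPA replicate 3 (0.200). With the replicate block the Sirt2 difference of 0.31 had an adjusted p of 0.0665.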
